A study of Mus musculus with 16 samples.

Results

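The cytosolic ribosome is built from ribosomal RNA and a fixed set of proteins, and each of those proteins is encoded by its own gene. The genes described here are the cytosolic ribosomal protein genes of the mouse, taken by symbol: Rps or Rpl followed by a number and at most 1 letter a, l or x, together with Rplp0, Rplp1, Rplp2 and Rpsa. The rule found 83 of the 55291 genes in the count table, 32 of the small subunit and 51 of the large subunit, and left out the 319 symbols that mark pseudogenes. Of the 83, GENCODE M21 annotates 80 as protein-coding and the other 3, Rpl32l, Rpl6l and Rps4l, as processed pseudogenes, that of Rps4l as a transcribed one. It also left out 9 ribosomal genes or paralogues with other symbols, among them Rps3a1, Fau and Rack1, which are given as a list of their own.

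The study asked, per its title, how an Srsf2 mutation bears on leukaemia development under an Asxl1 transgene. RNA was sequenced from Lin-cKit+Sca-1+ bone marrow cells, the fraction that holds haematopoietic stem and early progenitor cells, which had been purified with beads from 16 individual C57BL/6 mice. There were 4 mice in each of 4 groups: wild type (WT), Asxl1Y588XTg (a transgene for a truncated form of the chromatin regulator Asxl1, here Asxl1Tg), Srsf2P95H/+ (a heterozygous amino acid change in the splicing factor Srsf2, here Srsf2P95H) and mice with both (DM). The design text counts 3 DM mice, while 4 are labelled and have a column of counts, and all 4 were used. The labels give no age, sex or batch, and the promoter of the transgene is not given in the sources used here. All 4 groups share the strain and the purification, and the labels name no treatment.

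Ribosomal proteins are made in nearly equal amounts, since each is needed once in every ribosome, with the stalk proteins Rplp1 and Rplp2 as the exception. Their messenger RNAs carry a terminal oligopyrimidine (TOP) tract, a C at the first base followed by a run of C and T, through which the kinase mTORC1 and the RNA-binding protein Larp1 control their translation together. In blood the family is known for Diamond-Blackfan anaemia, where 1 copy of a ribosomal protein gene is lost, for RPS14 in the myelodysplastic syndrome with a deletion on chromosome 5, and for the binding of Mdm2 by free Rpl5 and Rpl11, which stabilises p53.

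RefSeq start sites (build GRCm38.p6) were given for 61 of the 83 genes. A TOP-type start, a C at the annotated first base and at least 4 more pyrimidines behind it, stood at 14 of these (23.0%) and at 813 of all 27025 genes in the same table (3.01%). A tract of the same kind began within 10 bases of the annotated start in 39 members (63.9%) and in 34.4% of all genes. The stretches below run 5′ to 3′ from 10 bases before the annotated first base and hold 20 transcribed bases, and capitals mark a TOP tract at that first base. They show 4 members with the tract, among them Rpl15 and Rps18, which the Srsf2 comparisons below call, and then 4 called members whose annotated start has none.
Rpl15 (chr14:18270967-18270996, minus strand): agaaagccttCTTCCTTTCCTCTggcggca
Rps18 (chr17:33955646-33955675, minus strand): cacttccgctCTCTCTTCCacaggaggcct
Rps6 (chr4:86857348-86857377, minus strand): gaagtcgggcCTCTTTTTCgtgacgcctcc
Rps27 (chr3:90213629-90213658, minus strand): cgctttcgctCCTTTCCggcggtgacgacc
Rps27l (chr9:66946076-66946105, plus strand): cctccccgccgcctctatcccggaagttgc
Rpl13a (chr7:45128726-45128755, minus strand): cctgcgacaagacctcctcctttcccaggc
Rpl12 (chr2:32961702-32961731, plus strand): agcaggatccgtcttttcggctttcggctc
Rpl22 (chr4:152325716-152325745, plus strand): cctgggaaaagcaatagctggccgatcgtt
Rps27 and Rps27l encode closely related proteins of the small subunit but differ at the annotated first base. In Rpl12, Rpl13a and Rps27l runs of C and T begin within a few bases downstream of the annotated base, and that of Rpl13a is as long as the tract marked in Rpl15 or longer, so the letters describe this window only. Rpl22 and Rps27l have 2 annotated starts each, neither with the tract, and 1 is shown. The 14 members with the tract at the start and the 46 tested members without it had median log2 fold changes of 0.22 and 0.18 in Srsf2P95H versus WT, and of 0.17 and 0.17 in DM versus Asxl1Tg.

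The libraries held 82991500 to 127596000 counts, rounded to 6 digits. All 10 markers of this fraction, Kit and Ly6a (Sca-1) among them, were above 0 in every group and summed to 2443 to 3901 counts-per-million (CPM) per library. Transcripts of mature cells were present too. WT 4 had the highest levels of B lineage and eosinophil markers of all libraries. Its B lineage markers had a mean log2 CPM of 3.81 against -0.56 to 1.58 in the other WT mice. Its eosinophil markers summed to 1574 CPM against 310, 306 and 41.9 in WT 1, 2 and 3. The 11 immediate-early genes, such as Fos and Egr1, summed to 553 to 9777 CPM in WT mice, 1818 to 7302 in Asxl1Tg mice, 1977 to 10566 in Srsf2P95H mice and 1317 to 2369 in DM mice, with WT 4 lowest and Srsf2P95H 2 highest of all. WT 4 also had the lowest and Srsf2P95H 2 the highest level of ribosomal protein transcripts. Medians over all members tested against WT are therefore also given without 1 or both of them. Values of the other gene lists are given with all 16 libraries only. The part of the mature-cell and immediate-early transcripts in the results below was not tested. Bulk samples of this kind cannot tell fewer cells of a type from less RNA per cell. Xist stood above 100 CPM in 5 of the 16 libraries.

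Members were among the most abundant transcripts. By counts per transcript length, scaled to transcripts-per-million (TPM), 63 of the 100 most abundant genes were members, the median member stood at 1667 TPM, and members held 11.6% to 15.5% of all TPM. The highest were Rps29 at 4051 ± 318 TPM (SD, n = 16), Rps12 at 3741 ± 412 and Rplp1 at 3626 ± 264, and these neighbours did not differ beyond their spread. The order depends on the transcript length used, since with the length of all exons of the gene the values were 3093, 1463 and 4921. A floor of 10 CPM separated 8 members from the rest: the tissue-restricted paralogues Rpl10l, Rpl39l and Rpl3l, the annotated processed pseudogenes Rpl32l, Rpl6l and Rps4l, and Rpl24 and Rps10. Rpl10l, known as a testis gene, had 0 counts in every library, which allows at most 0.0235 to 0.0361 CPM, and was the 1 member that did not pass the filter on low counts. Rpl3l, the heart and skeletal muscle form of Rpl3, stood at 0.423 TPM, Rpl39l, the testis form of Rpl39, at 0.460 and Rpl6l at 7.37.

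Rpl24 and Rps10 code for ordinary subunit proteins, yet stood at 4.3 and 5.67 CPM. In the GENCODE M21 annotation 83.4% of the coding bases of Rpl24 and 80.1% of those of Rps10 are also exons of a read-through gene on the same strand. The same holds for 90.3% of the coding bases of Rpl13a, which stood at 88.7 TPM, the lowest of the members above 10 CPM. The read-through genes over Rpl24 and Rpl13a had 0 counts in all 16 libraries. For these 3 members the counts may cover only the remaining parts of the transcript, so their levels and fold changes are uncertain. A further 25 members have near-identical copies among the annotated transcripts of other genes (at least 95% identity over at least 80% of the transcript). Rpl7a with 32, Rps2 with 23 and Rpl23a with 16 have the most. How reads that map to several places were handled is not given, so their levels are uncertain.

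Together the 83 genes took 6.60%, 6.91%, 6.88% and 5.92% of all counts in WT mice 1 to 4, and 6.36%, 6.87%, 7.03% and 6.29% in Asxl1Tg. In Srsf2P95H they took 6.38%, 7.73%, 7.06% and 6.76%, and in DM 6.72%, 7.52%, 7.17% and 7.35%. The means were 6.58% ± 0.460 (SD, n = 4) for WT, 6.64% ± 0.367 for Asxl1Tg, 6.98% ± 0.568 for Srsf2P95H and 7.19% ± 0.343 for DM. DM exceeded WT 1.09-fold and Asxl1Tg 1.08-fold, and each of these ranges overlapped. Without WT 4 the WT mean was 6.79%, and without Srsf2P95H 2 the mean of that group was 6.73%, below it. The balance of the subunits was steadier than the total: the ratio of large to small subunit counts was 1.24 ± 0.00953 for WT, 1.24 ± 0.00721 for Asxl1Tg, 1.26 ± 0.0143 for Srsf2P95H and 1.25 ± 0.00597 for DM.

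**Figure D1:**
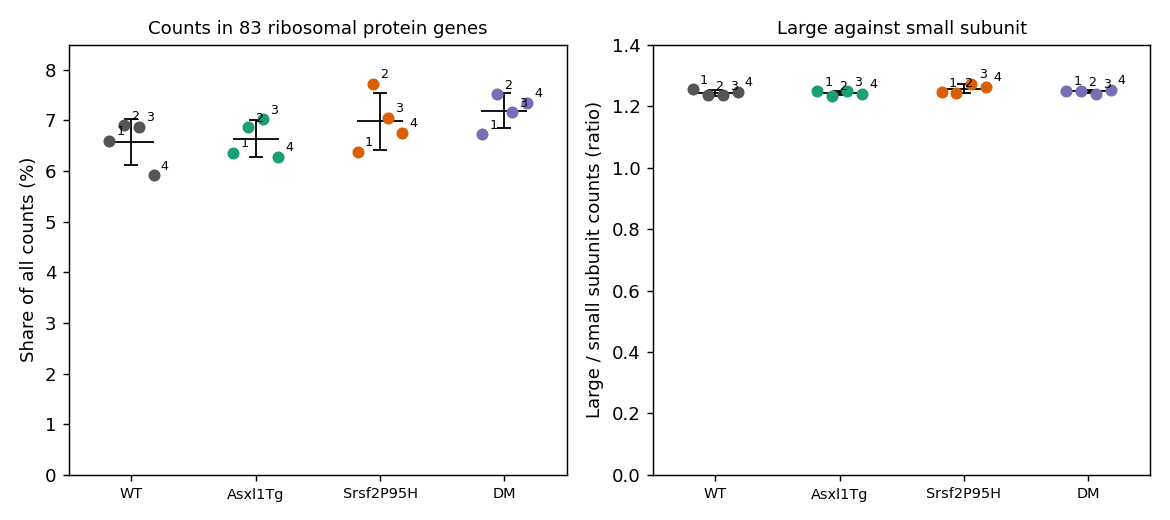
Share of all counts that fell in the 83 ribosomal protein genes (left, percent) and the ratio of large to small subunit counts (right) in each library, with points numbered by mouse and bars for the mean and SD of 4 mice. WT 4 is lowest at 5.92% and Srsf2P95H 2 highest at 7.73%, while the ratio stays between 1.23 and 1.27.

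Between mice of 1 group the members moved as a block. Over the 73 members of at least 100 CPM, the median pairwise Pearson correlation of log2 CPM, with group means removed, was 0.90 over 2628 pairs and 16 libraries that share depth and composition, given as a description. The mean of these members lay 0.26 below its group mean in WT 4 and 0.18 above it in Srsf2P95H 2 on the log2 scale, and 0.12 away from it at most in the other 14 libraries. Some members followed less or not at all. Within the block the lowest correlations with its mean were 0.23 for Rpl30, 0.51 for Rps2 and 0.54 for Rpl35a. Among members below 100 CPM it was 0.11 for Rpl39l, 0.19 for Rps27l, 0.22 for Rpl24 and 0.39 for Rps4l. It was 0.44 for Rpl13a, 0.47 for Rpl32l, 0.56 for Rpl3l and -0.58 for Rps10.

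Each gene was tested with edgeR's quasi-likelihood test on all 16 libraries, and every adjusted p below is Benjamini-Hochberg adjusted over the 22749 genes that passed the filter. A member is said to rise or fall where that adjusted p was under 0.05. Counts of calls with libraries left out or in other alternatives are given without the share of all genes called there. Shifts in them cannot be read as particular to the members. The median standard error (SE) of a member's log2 fold change was 0.0947 in a comparison of 2 groups and 0.0670 where the Srsf2 mutation was averaged over both Asxl1 backgrounds. Over all genes tested the median SE in a comparison of 2 groups was 0.235.

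In Srsf2P95H, 79 of the 82 members tested had a log2 fold change above 0 against WT (45.0% of all genes did), with a median of 0.19 beside -0.05 over all genes. Only Rpl13a and Rps27l rose at the threshold (2 of 82, where 0.506% of all genes were called, 0.264% higher and 0.242% lower), and 34 members had an unadjusted p under 0.05 (25.3% of all genes did). In 12 members all 4 Srsf2P95H mice lay above all 4 WT mice, and 8.33% of all genes did so, while no member lay wholly below (5.4% of all genes). The 73 members of at least 100 CPM were all above 0, from 0.03 in Rps27 to 0.34 in Rpl41. This comparison leaned on WT 4 and Srsf2P95H 2: the median was 0.11 without the first, 0.13 without the second and 0.05 without both, where 55 of the 73 remained above 0 and 1 member was called. No member was called without any 1 of WT 2, WT 3, WT 4, Srsf2P95H 1, Srsf2P95H 3, Srsf2P95H 4 or DM 4, 1 was without Asxl1Tg 3, Asxl1Tg 4 or DM 2, and 4 were without WT 1.

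In DM against WT, 79 of 82 members were again above 0 (47.6% of all genes), with a median of 0.21 beside -0.02. Of the 82, 7 rose and 1 fell, beside 9.39% of all genes called, 4.65% higher and 4.73% lower, so the share called was near the background. The 7 were Rpl12, Rpl13a, Rpl15, Rpl27, Rpl41, Rps12 and Rps27l, and the 1 was Rps4l. In 36 members all DM mice lay above all WT mice, against 9.28% of all genes, and in 1, Rps4l, all lay below (9.35% of all genes). Without WT 4 the median was 0.13 and 3 members were called, Rpl13a and Rps27l higher and Rps4l lower. Leaving out WT 3, DM 1, DM 2 or DM 4 also left 3 calls, and leaving out Asxl1Tg 4 left 5.

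The Srsf2 mutation can also be read on the transgene background, in DM against Asxl1Tg, and these 8 libraries include neither WT 4 nor Srsf2P95H 2. There 78 of 82 members were above 0 (49.5% of all genes) with a median of 0.17 beside -0.00357. All DM mice lay above all Asxl1Tg mice in 31 members (7.35% of all genes) and below them in none (4.16%). Rpl22 alone rose (1 of 82, with 1.08% of all genes called, 0.848% higher and 0.229% lower), and 27 members had an unadjusted p under 0.05 (17.8% of all genes). The median stayed between 0.13 and 0.20 when each library was left out in turn. The count of calls was 4 without WT 4, 2 without Asxl1Tg 2 and 0 without any 1 of WT 2, Asxl1Tg 1, Asxl1Tg 4, Srsf2P95H 1 or the 4 DM mice. With library size as the only scaling the median was 0.10.

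Since Srsf2P95H versus WT and DM versus Asxl1Tg share no library, the members' values in them can be set side by side. All 73 members of at least 100 CPM were above 0 in both, from 0.03 to 0.34 in the first and from 0.05 to 0.40 in the second, and 77 of the 82 tested were above 0 in both. Across the 73 genes, which share libraries and are not independent, the sizes had a Pearson r of 0.33, and across all 82 members tested r was 0.0256. Rpl22, Rpl12 and Rpl39 stood out on the transgene background, at 0.40, 0.37 and 0.34, and Rpl41 without it, at 0.34. Other abundant genes also leaned upward, though less: of 2310 other genes of at least 100 CPM, a limit chosen after the data were seen, 73.4% were above 0 in Srsf2P95H versus WT (median 0.12) and 68.8% in DM versus Asxl1Tg (median 0.07). Without WT 4 and Srsf2P95H 2 the order turned in the first comparison, with a median of 0.10 in the other abundant genes and 0.05 in all members tested.

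**Figure D2:**
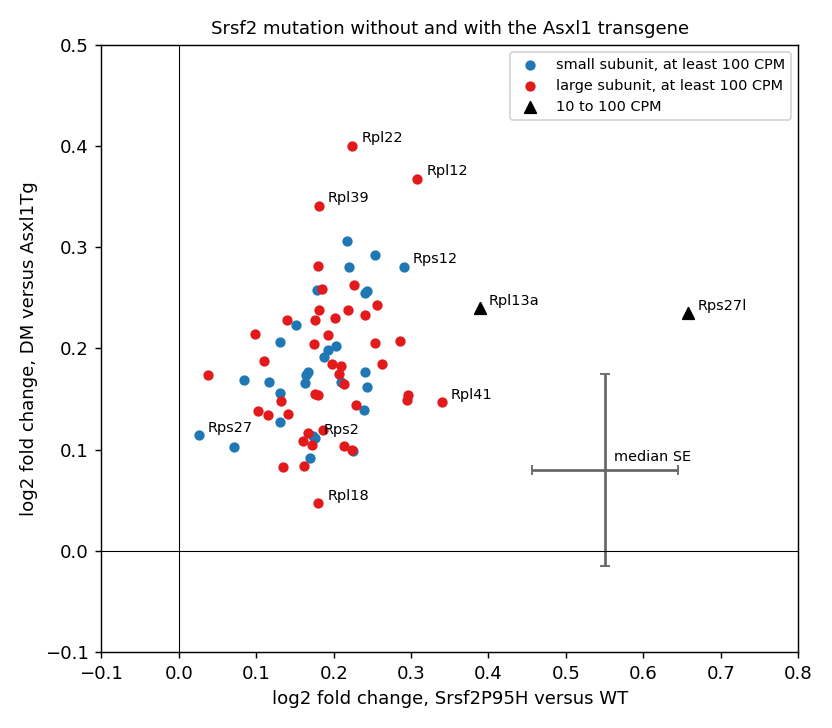
Log2 fold change of each ribosomal protein gene above 10 CPM in Srsf2P95H versus WT (x axis) and in DM versus Asxl1Tg (y axis), 2 comparisons that share no library. Circles are members of at least 100 CPM by subunit, triangles Rpl13a and Rps27l, and the grey cross is the median SE; every point lies above 0 on both axes.

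**Figure D3:**
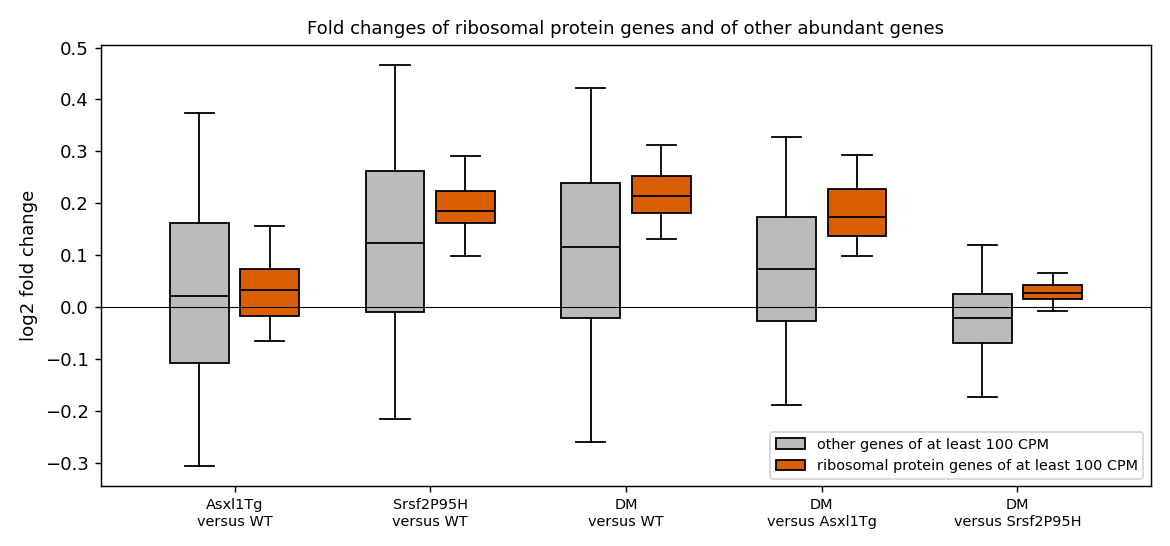
Log2 fold changes of the 73 ribosomal protein genes (orange) and 2310 other genes (grey) of at least 100 CPM in 5 comparisons, with boxes for the quartiles, the line for the median and whiskers for the 5th and 95th percentiles. Members have medians of 0.18, 0.21 and 0.17 in the comparisons that differ in Srsf2 (Srsf2P95H versus WT, DM versus WT, DM versus Asxl1Tg) and 0.03 in the others.

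Averaging the Srsf2 mutation over both Asxl1 backgrounds sets 8 mice against 8 and gave the most calls. Of 82 members 25 rose and none fell, beside 10.6% of all genes called, 6.57% higher and 4.07% lower, and 79 were above 0 (47.5% of all genes). These were 8 of 32 small subunit genes and 17 of 50 large subunit genes tested, with median log2 fold changes of 0.18 and 0.19 over all tested members of each. Among the other 2310 abundant genes 18.2% were called higher, beside 31.5% of the 73 abundant members. In DM versus WT the order was reversed, with 9.004% of the other abundant genes and 6.849% of the abundant members called higher. It was also reversed in DM versus Asxl1Tg (1.732% and 1.37%) and in Srsf2P95H versus WT (0.3896% and 0%). For the averaged mutation, counts of calls moved with single libraries, from 5 without DM 2 to 26 without Srsf2P95H 4. They were 10 without DM 4 and 12 without Asxl1Tg 1, Srsf2P95H 3 or DM 1. They were 14 without Asxl1Tg 4 or Srsf2P95H 1, 16 without Asxl1Tg 2 and 18 without WT 4. The calls of Rpl12, Rpl13a, Rpl15, Rpl22 and Rps27l held in all 26 alternative analyses run for this comparison. Of the calls followed by name, those of Rpl10a, Rpl37a, Rpl41 and Rps7 were lost without WT 4 and Srsf2P95H 2 together.

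The Asxl1 transgene alone gave no call. In Asxl1Tg versus WT, 54 of 82 members were above 0 (44.7% of all genes), with a median of 0.04 beside -0.04. No member was called (1.88% of all genes were, 1.12% higher and 0.76% lower), none had groups that did not overlap (3.7% of all genes higher and 5.28% lower), 2 had an unadjusted p under 0.05 (21.5% of all genes), and DESeq2 and limma-voom called 0 as well. The smallest adjusted p belonged to Rps27l at 0.39 (SE 0.135, adjusted p = 0.116), followed by Rpl13a at 0.17 (SE 0.0768, adjusted p = 0.213). Rps27l was called without WT 1 and without Asxl1Tg 2. Rpl41, Rps4l and Rpl27 followed at 0.21, -0.54 and 0.17, with adjusted p of 0.235, 0.258 and 0.293. The median over members in Asxl1Tg versus WT changed sign, to -0.044, without WT 4 and Srsf2P95H 2. With the transgene averaged over both Srsf2 backgrounds the median was 0.03, 60 members were above 0 (45.8% of all genes), and Rps4l fell as the only member called (1.85% of all genes, 1.4% higher and 0.444% lower). In none did all 8 mice with the transgene lie above or below all 8 without it (0.462% and 0.0703% of all genes). The median over members for the averaged transgene was -0.00992 without WT 4.

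DM was also set against Srsf2P95H, which reads the transgene on the Srsf2 background. The median over members was 0.03 beside -0.01 (0.083 for members without WT 4 and Srsf2P95H 2), and 70 of 82 were above 0 (47.5% of all genes). No member was called by edgeR (0.246% of all genes were, 0.215% higher and 0.0308% lower), and 1 had an unadjusted p under 0.05 (6.48% of all genes). DESeq2 and limma-voom each called 1, which was Rps4l, the 1 member in which all DM mice lay below all Srsf2P95H mice (1.42% of all genes did, and 2.86% above). It was also called without WT 4 and without Asxl1Tg 2. After Rps4l the smallest p-values were those of Rps10, Rps2, Rpl35a and Rps29, at -0.21, 0.14, 0.08 and 0.07, with adjusted p from 0.956 to 0.99. The interaction, which asks whether the Srsf2 difference itself differs with the transgene, had a median of -0.00169 over members, with 40 above 0 (53.5% of all genes) and none called (0% of all genes). Its smallest adjusted p among members was 0.406, for Rps27l at -0.42 (SE 0.191), and 1 member had an unadjusted p under 0.05 (11.7% of all genes). Rps4l, Rps10, Rpl22 and Rpl13a followed at -0.79, -0.45, 0.18 and -0.15. DESeq2 and limma-voom called none. The median interaction was 0.14 without WT 4 and Srsf2P95H 2.

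Turning to single members, Rpl12 builds the base of the stalk where elongation factors dock. Rpl12 stood at 1237, 1322, 1314 and 982 CPM in WT mice 1 to 4, while the Asxl1Tg mice had 1200.4, 1153, 1319 and 1131, the Srsf2P95H mice 1362, 1684, 1579 and 1386 and the DM mice 1425, 1648, 1491 and 1634. All DM mice lay above all mice of WT and of Asxl1Tg, and all Srsf2P95H mice above them too. The group means, in the order WT, Asxl1Tg, Srsf2P95H and DM kept below, were 1214 ± 159 (SD, n = 4), 1201 ± 84.0, 1503 ± 155 and 1549.5 ± 109. Rpl12 rose with the Srsf2 mutation averaged over both backgrounds, at 0.34 (SE 0.0699, adjusted p = 0.0103), and in DM versus WT, at 0.35 (SE 0.0988, adjusted p = 0.0369). The second call was lost without WT 3, WT 4, DM 1, DM 2 or DM 4 (log2 fold change from 0.26 over all alternatives).

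The stalk itself is formed by Rplp0, Rplp1 and Rplp2, acidic proteins that draw elongation factors to the ribosome. Rplp0 stood at 1984, 2028, 1916 and 1521 CPM in WT mice 1 to 4, while the Asxl1Tg mice had 1894, 1872, 2049 and 1959, the Srsf2P95H mice 1924, 2452, 2258 and 1980.3 and the DM mice 2113, 2287, 2099 and 2327. DM mice lay above all WT and all Asxl1Tg mice, while Srsf2P95H overlapped WT. None of the 3 genes was called. Their log2 fold changes for the averaged Srsf2 mutation were 0.20 (SE 0.0668, adjusted p = 0.0668) for Rplp0, 0.17 for Rplp1 and 0.11 for Rplp2. Rplp1 averaged 983 ± 111 CPM in WT and 1132 ± 65.1 in DM, and Rplp2 594 ± 74.6 and 681 ± 27.3.

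Rpl5 and Rpl11 join the 5S ribosomal RNA before entering the large subunit and bind Mdm2 when they are in excess. Rpl5 stood at 932, 995, 989 and 794 CPM in WT mice 1 to 4, while the Asxl1Tg mice had 883, 921, 991 and 850.1, the Srsf2P95H mice 955, 1138, 1059.7 and 934 and the DM mice 999, 1134, 1036 and 1100.0. The DM mice lay above every WT and Asxl1Tg mouse, with the lowest DM value, mouse 1, just above WT 2. For Rpl11 the means were 622 ± 70.6 CPM for WT, 648 ± 12.5 for Asxl1Tg, 707 ± 90.4 for Srsf2P95H and 703 ± 58.8 for DM, and DM overlapped WT. Neither was called, and their log2 fold changes for the averaged Srsf2 mutation were 0.18 (adjusted p = 0.0615) and 0.15 (adjusted p = 0.146).

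Of the 20 members known from Diamond-Blackfan anaemia, all 20 were above 0 in Srsf2P95H versus WT (median 0.18) and in DM versus WT (median 0.19). For the averaged Srsf2 mutation 4 of the 20 rose, Rps7, Rps15a, Rpl15 and Rpl27, beside 25 of all 82 members and 6.57% of all genes. Rpl15, an inner protein of the large subunit, was one of them. Rpl15 stood at 504, 524, 515 and 405 CPM in WT mice 1 to 4, while the Asxl1Tg mice had 503, 485, 515 and 493, the Srsf2P95H mice 555, 606, 609 and 531 and the DM mice 583, 611, 545 and 608. All Srsf2P95H and DM mice lay above all WT and Asxl1Tg mice, and WT 4 was the lowest of all. It rose by 0.24 (SE 0.0567, adjusted p = 0.0188) for the averaged mutation and 0.27 (SE 0.0802, adjusted p = 0.0458) in DM versus WT. The call in DM versus WT was lost in 16 of 27 alternatives, including without WT 4.

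Rpl27 stood at 325, 315, 303 and 229 CPM in WT mice 1 to 4, while the Asxl1Tg mice had 340.4, 310.0, 341 and 330.2, the Srsf2P95H mice 346, 387, 369 and 336 and the DM mice 365, 380.0, 335 and 386. The lowest value was that of WT 4, and all DM mice lay above all WT mice. Rpl27, a surface protein of the large subunit, rose by 0.32 in DM versus WT (SE 0.0931, adjusted p = 0.0411) and by 0.22 for the averaged mutation (adjusted p = 0.0412). The first call was lost without any 1 of WT 2, WT 3, WT 4, Asxl1Tg 4, DM 1, DM 2 or DM 4. Rps19, the gene most often affected in that anaemia, averaged 799 ± 95.4, 811 ± 48.6, 895 ± 65.7 and 915 ± 36.5 CPM in the 4 groups in the same order and was not called, at 0.17 (SE 0.0602, adjusted p = 0.0771) for the averaged mutation. Rps14, the del(5q) gene, averaged 1118 ± 124, 1084 ± 88.8, 1224 ± 106 and 1251 ± 56.8 CPM and was not called either (0.17, adjusted p = 0.089). At the low end of the list, Rps27 had 0.07 (SE 0.0733, adjusted p = 0.552).

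Rpl41, the smallest ribosomal protein, and Rps12, a small subunit protein known from cell competition in flies, completed the calls in DM versus WT. Rpl41 stood at 622, 635, 569 and 453 CPM in WT mice 1 to 4, while the Asxl1Tg mice had 651, 625, 716 and 651, the Srsf2P95H mice 670.3, 781, 741 and 692 and the DM mice 686, 796, 644 and 799. All Srsf2P95H and DM mice lay above all WT mice, and the Asxl1Tg mice overlapped every group. Rps12 stood at 1211, 1267, 1169 and 898 CPM in WT mice 1 to 4, while the Asxl1Tg mice had 1160.3, 1155, 1247 and 1140.0, the Srsf2P95H mice 1264, 1576, 1440.4 and 1278 and the DM mice 1345, 1517, 1324 and 1523. Here the Asxl1Tg mice stayed within the WT range while all DM mice lay above both. The log2 fold changes in DM versus WT were 0.36 (SE 0.102, adjusted p = 0.038) and 0.33 (SE 0.101, adjusted p = 0.0495). Neither was called without WT 4.

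Rpl22, a protein that the ribosome can do without and that T cell development needs, is lost in some T cell leukaemias. Rpl22 stood at 356, 345, 388 and 312 CPM in WT mice 1 to 4, while the Asxl1Tg mice had 287, 334, 361 and 288, the Srsf2P95H mice 383, 448, 423 and 383 and the DM mice 426, 433, 399 and 419. Asxl1Tg mice held the lowest values but overlapped WT, and every DM mouse lay above every WT and Asxl1Tg mouse. Rpl22 rose in DM versus Asxl1Tg by 0.40 (SE 0.0869, adjusted p = 0.0396) and for the averaged Srsf2 mutation by 0.31 (SE 0.0614, adjusted p = 0.00819). The first call was lost in 11 of 27 alternatives, among them leaving out Asxl1Tg 1, Asxl1Tg 4 or any 1 DM mouse. Its paralogue Rpl22l1, whose expression Rpl22 is known to repress, rose too for the averaged mutation, by 0.36 (adjusted p = 0.0456), with means of 77.6 ± 12.0 CPM in WT, 84.6 ± 12.3 with the transgene, 107 ± 22.2 in Srsf2P95H and 101 ± 13.1 in DM. Rpl22 has 1 near-identical copy in the annotation.

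The other members that rose for the averaged Srsf2 mutation changed by similar amounts. Among them were Rpl7 (0.24), Rps18 (0.27), Rpl9 (0.23), Rps12 (0.29), Rpl39 (0.26), Rps15a (0.26) and the ubiquitin fusion gene Rps27a (0.25), with adjusted p from 0.0189 to 0.0246. Rps20 (0.25), Rpl6 (0.23), Rpl10a (0.22), Rpl10 (0.25), Rpl37a (0.23), Rps7 (0.22) and Rpl41 (0.24) followed, with adjusted p from 0.029 to 0.0405. Of these, Rpl15, Rpl12, Rpl13a, Rps15a and Rpl6 had all 8 mice with the mutation above all 8 without it, 5 of 82 members beside 0.778% of all genes. Rps15a averaged 709 ± 87.3 and 673 ± 66.2 CPM without the mutation and 824 ± 66.0 and 832 ± 26.0 with it, and Rpl6 1106 ± 131, 1139 ± 20.8, 1318 ± 129.9 and 1314 ± 88.5. The calls of largest adjusted p, Rpl27, Rpl7a, Rpl14, Rpl3 and Rpl30, had adjusted p of 0.0412 to 0.0497.

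Rpsa, the small subunit protein that also serves as a laminin receptor, is the gene of isolated congenital asplenia. Rpsa stood at 2118, 2225, 2163 and 1694 CPM in WT mice 1 to 4, while the Asxl1Tg mice had 2201, 2083, 2274 and 2280.3, the Srsf2P95H mice 2194, 2875, 2442 and 2196 and the DM mice 2294, 2640.0, 2329 and 2623. All DM mice lay above all WT and Asxl1Tg mice, and Srsf2P95H 2 was the highest of all. It was not called, at 0.27 (SE 0.0991, adjusted p = 0.0848) in DM versus WT and 0.20 (SE 0.0701, adjusted p = 0.0704) for the averaged mutation.

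On the X chromosome lie 4 members: Rpl10, which completes the large subunit late in assembly, Rpl36a, Rpl39 of the exit tunnel, and Rps4x. All 4 were above 0 in the comparisons that differ in Srsf2, with a median of 0.22 for the averaged mutation, and 2 rose, Rpl39 at 0.26 (SE 0.0653, adjusted p = 0.0227) and Rpl10 at 0.25 (SE 0.0702, adjusted p = 0.0349). Rpl36a stood at 0.19 (adjusted p = 0.094) and Rps4x at 0.19 (adjusted p = 0.064). Rpl39 stood at 527, 561, 562 and 436 CPM in WT mice 1 to 4, while the Asxl1Tg mice had 451, 506, 523 and 414, the Srsf2P95H mice 553, 626, 635 and 551 and the DM mice 586, 631, 570.2 and 611. All DM mice lay above all WT and Asxl1Tg mice, while Srsf2P95H 1 and 4 lay below WT 2 and 3. With the Xist class of the library as a covariate, 21 members were called for the averaged mutation. The share of all genes called with that covariate is not given here.

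Rps27l is a paralogue of Rps27 that p53 induces. It lies at chr9:66946086-66949516 on the plus strand (GRCm38). Rps27l stood at 81.7, 72.6, 63.5 and 49.9 CPM in WT mice 1 to 4, while the Asxl1Tg mice had 99.7, 71.8, 89.2 and 89.8, the Srsf2P95H mice 119, 90.4, 101 and 112 and the DM mice 115, 104, 88.9 and 105. All Srsf2P95H and DM mice lay above all WT mice, with Asxl1Tg between them and overlapping both. The means were 66.9 ± 13.6, 87.6 ± 11.6, 106 ± 12.7 and 103 ± 10.6 CPM. Rps27l rose by 0.66 (SE 0.136, adjusted p = 0.0406) in Srsf2P95H versus WT, by 0.62 (SE 0.136, adjusted p = 0.0142) in DM versus WT and by 0.45 (SE 0.0957, adjusted p = 0.0121) for the averaged mutation. The call in DM versus WT held in all 27 alternatives, and that in Srsf2P95H versus WT was lost in 12 of 27. Rps27 itself averaged 572 ± 63.6, 548 ± 42.2, 582 ± 91.5 and 593 ± 33.2 CPM, with 0.03 and 0.05 in the same comparisons (adjusted p = 0.898 and 0.757). The difference between the paralogues was not tested.

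Rpl13a is a large subunit protein that in myeloid cells leaves the ribosome after interferon-gamma and silences inflammatory messenger RNAs. Rpl13a stood at 46.0, 48.2, 45.8 and 42.9 CPM in WT mice 1 to 4, while the Asxl1Tg mice had 53.8, 44.9, 54.4 and 52.3, the Srsf2P95H mice 58.7, 62.8, 55.1 and 62.7 and the DM mice 57.5, 66.3, 55.6 and 63.3. The 8 mice with the Srsf2 mutation lay above the 8 without it. Rpl13a rose by 0.39 (SE 0.0769, adjusted p = 0.0379) in Srsf2P95H versus WT, by 0.41 (SE 0.0768, adjusted p = 0.00716) in DM versus WT and by 0.31 (SE 0.0543, adjusted p = 0.00457) for the averaged mutation. The last of these calls held in all 26 alternatives, the second in all 27, and the first was lost in 11 of 27. The gene lies at chr7:45125558-45128761 on the minus strand (GRCm38), and its level is uncertain because of the read-through gene described above. Its fold changes and calls rest on the same counts, which every alternative also used, so the alternatives cannot address this limit.

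Rps4l, annotated as a transcribed processed pseudogene of the S4 family at chr6:148354656-148355598, moved the other way. Rps4l stood at 8.27, 8.41, 9.37 and 5.54 CPM in WT mice 1 to 4, while the Asxl1Tg mice had 4, 2.83, 7.32 and 7.52, the Srsf2P95H mice 7.54, 7.47, 5.89 and 6.99 and the DM mice 2.94, 3.28, 1.81 and 3. All DM mice lay below all WT and Srsf2P95H mice, and of the Asxl1Tg mice, mouse 2 lay within the DM range, mouse 1 just above it and mice 3 and 4 within the WT range. Rps4l fell, at -1.52 (SE 0.277, adjusted p = 0.0062) in DM versus WT and -0.94 (SE 0.193, adjusted p = 0.0143) for the transgene averaged over both Srsf2 backgrounds, and both calls held in all alternatives run. In DM versus Srsf2P95H it had -1.34 (SE 0.276, adjusted p = 0.0534) on the log2 scale, called in 7 of 27 alternatives. Rps4x, the protein-coding X-linked gene, averaged 1916 ± 207, 1865 ± 107, 2127 ± 211 and 2176 ± 119.8 CPM and had 0.18 in DM versus WT (adjusted p = 0.171). Per length, Rps4l stood at 10.4 TPM and Rps4x at 3539.

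**Figure D4:**
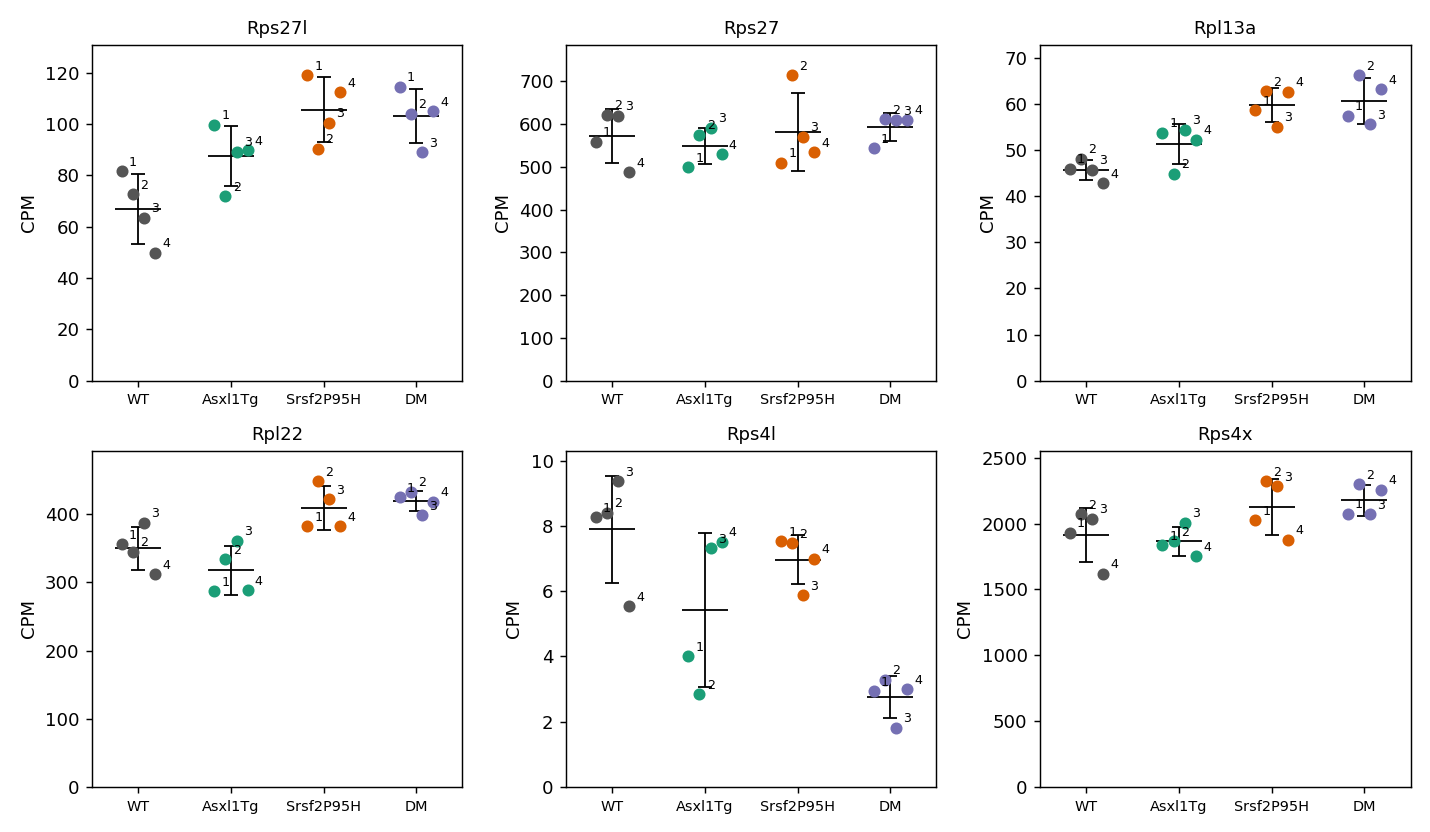
CPM of 6 ribosomal protein genes in each library, with points numbered by mouse and bars for the mean and SD of 4 mice. Rps27l and Rpl13a are higher in the mice with the Srsf2 mutation than in WT. The lowest Rpl22 values are those of Asxl1Tg mice, though that group overlaps WT. Rps4l is low in all DM mice and in Asxl1Tg 1 and 2. Rps27 and Rps4x are shown as the paralogues of Rps27l and Rps4l.

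Of the other members below 10 CPM none was called. Rpl39l had log2 fold changes from -1.59 (interaction) to 1.01 (Srsf2P95H versus WT) and was at 0 counts in 4 libraries, with 0.952 CPM in Asxl1Tg 3 as its highest value. Rpl3l stood at 0.503 ± 0.146 CPM in WT and 0.253 ± 0.175 in Asxl1Tg (-0.99, SE 0.582, adjusted p = 0.344). Rpl32l and Rpl6l had -0.12 and 0.05 for the averaged Srsf2 mutation. Rpl24 and Rps10 had 0.28 and 0.12, and none of the 4 was called.

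Other genes of translation were read from lists written from textbook knowledge, with all 16 libraries. WT 4 was the lowest library in translation factors, at a mean log2 CPM of 9.36 against 9.66 to 9.71 in the other WT mice. In mitochondrial ribosomal protein genes WT 4 was lowest too, at 4.39 against 4.63 to 4.74. Of 14 translation factors and other TOP mRNAs, all 14 were above 0 in Srsf2P95H versus WT (median 0.19), DM versus WT (0.21) and DM versus Asxl1Tg (0.18), and 7 in Asxl1Tg versus WT (0.01). For the averaged Srsf2 mutation 6 of the 14 rose, where 6.57% of all genes were called higher. Among the 6 were the initiation factor gene Eif3e at 0.31 (adjusted p = 0.00663), the poly(A)-binding protein gene Pabpc1 at 0.24 (adjusted p = 0.0206) and the nucleolar gene Npm1 at 0.34 (adjusted p = 0.0237). Of the 9 ribosomal genes outside the naming rule 4 rose, Rpl7l1 (0.26), Rack1 (0.21), Rps3a1 (0.21) and Rpl22l1, while Fau, a fusion with a ubiquitin-like protein, had 0.15 and was not called. The 8 snoRNA host genes with TOP starts, such as Gas5, had 0 calls by edgeR in any comparison and medians of 0.10 in Srsf2P95H versus WT and -0.01 in DM versus Asxl1Tg.

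Assembly factors and mitochondrial ribosomal proteins gave other values by comparison. The 77 mitochondrial ribosomal protein genes tested had medians of 0.24 in Asxl1Tg versus WT, 0.31 in Srsf2P95H versus WT and 0.26 in DM versus WT, but 0.01 in DM versus Asxl1Tg. For the averaged Srsf2 mutation 13 of the 77 rose (6.57% of all genes did), among them Mrps18c (0.44), Mrpl32 (0.31) and Mrpl44 (0.27). Mrps18a was called in Asxl1Tg versus WT (0.40, adjusted p = 0.037), where 1.88% of all genes were called. The 19 chaperones and late assembly factors tested had medians of 0.22 in Asxl1Tg versus WT, 0.21 in Srsf2P95H versus WT and -0.11 in DM versus Asxl1Tg, with 1 call for the averaged mutation, Rpf2, which brings the 5S particle into the large subunit (0.31). Cytosolic ribosomal protein genes had 0.04, 0.19 and 0.17 in those 3 comparisons. Whether the lists differ was not tested.

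**Figure D5:**
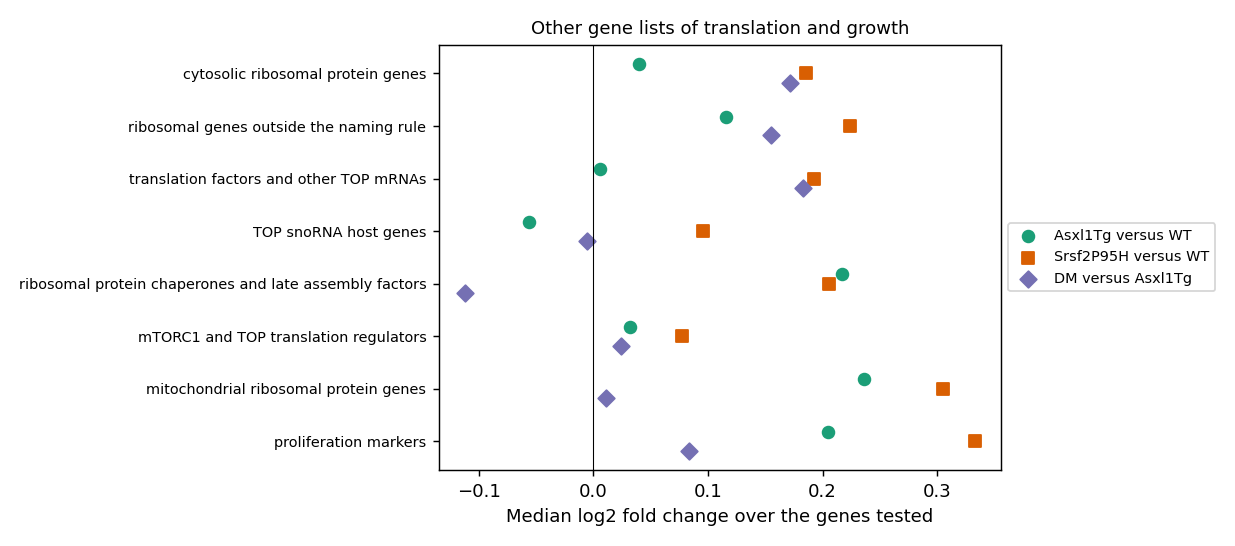
Median log2 fold change of cytosolic ribosomal protein genes and of 7 other lists in Asxl1Tg versus WT (circles), Srsf2P95H versus WT (squares) and DM versus Asxl1Tg (diamonds). Members and translation factors have medians from 0.17 to 0.19 in both Srsf2 comparisons and at most 0.04 in Asxl1Tg versus WT, while mitochondrial ribosomal protein genes have 0.24 in Asxl1Tg versus WT and 0.01 in DM versus Asxl1Tg.

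Of the 13 genes of mTORC1 and TOP control, Eif4e (0.30, the cap-binding factor) and Rheb (0.16, the activator of mTORC1) rose for the averaged Srsf2 mutation, and the list had a median of 0.06. In that comparison 6.57% of all genes were called higher and 4.07% lower. Of 12 proliferation markers 2 rose for the averaged mutation, Top2a (0.30) and Birc5 (0.30), and all 12 were above 0 (median 0.24). All 12 were also above 0 in Srsf2P95H versus WT (median 0.33) and in DM versus WT (0.31). In Asxl1Tg versus WT and in DM versus Asxl1Tg 10 were, with medians of 0.20 and 0.08. The list summed to 3069 to 3638 CPM in WT mice and to 3050 to 3848 in Asxl1Tg mice. In Srsf2P95H mice it summed to 3642 to 4266 CPM and in DM mice to 3323 to 4219. The part of proliferation in the members' values was not tested. Of the 173 pseudogene symbols tested, 1 rose and 4 fell for the averaged mutation and the median was -0.10, beside 0.19 in the members. Of the markers of the purified fraction, Flt3, a receptor of lymphoid-primed progenitors, fell in DM versus WT (-0.95, adjusted p = 0.0239). Neutrophil markers summed to 994 to 3885 CPM in WT and to 3247 to 6125 in DM, eosinophil markers to 41.9 to 1574 and 58.6 to 123, and T and NK cell markers to 105 to 146 and 111 to 181. The sums hide the single genes here: of the 9 T and NK cell markers tested in DM versus WT, 1 was above 0 (median -0.91). Nkg7 was called higher (0.57, adjusted p = 0.047) and Lck lower (-0.93, adjusted p = 0.0197). Erythroid markers stood at 17.8 to 58.2 CPM in WT and 21.1 to 37.3 in DM, and B lineage markers at 27.5 to 172 and 27.3 to 39.2. In DM versus WT 1 of 9 erythroid markers was above 0 (median -0.34) and 0 of 9 B lineage markers (-1.98). For the averaged Srsf2 mutation 0 of 9 erythroid markers were above 0 (-0.41), with Alas2 lower (-0.68, adjusted p = 0.0433). There 8 of 10 neutrophil markers were above 0 (0.63), with Mmp8 higher (1.79, adjusted p = 0.0233) at group means of 0.228 to 1.11 CPM. No gene of these lists was at 0 in a whole group, and the part of such cells in the members' values was not tested.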

How the data were processed

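RNA-seq of the Lin-cKit+Sca-1+ fraction of 16 mice, 4 in each of 4 groups, was read from 1 table of raw counts per gene, which the authors deposited. Per the submitters' processing notes, these counts were made on the mm10 build with STAR 2.7.0e and HTSeq 0.11.2, and the notes also name Trimmomatic 0.38 and FastQC. The strand setting and the handling of reads with several mapping places: not given in the sources used here. Per the labels' protocols, total RNA was extracted and sequenced as paired-end libraries. Columns were assigned to samples by name, and those of the Asxl1 transgenic mice, abbreviated in the table, by elimination.

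Genes were filtered with filterByExpr (minimum count 10), which kept 22749 genes, scaled by TMM and tested in edgeR 4.0.16 (R 4.3.3) with the quasi-likelihood test on all 16 libraries, with Benjamini-Hochberg adjustment over all genes kept and a threshold of 0.05. CPM are per TMM-scaled library. TPM used the principal transcript of GENCODE M21 on GRCm38, which has the coordinates of mm10. Near-identical copies were searched with blastn 2.17.0. Fits were tested on simulated data. The 16 libraries held 82991500 to 127596000 counts, all 24 pairs of libraries within a group differed beyond sampling noise, and the lowest members are the least precise. The labels number the mice but do not state that equal numbers pair them. Deviations of libraries with the same number had correlations of -0.293 to 0.295 over 24 pairs. These values cannot show whether the mice were paired, and the main test used no pairing.

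Members called at the threshold were named in each comparison, up to 20 by p-value, or the 5 of smallest p where none was called. The members of highest and lowest fold change were named too. Some genes that this rule or the lists include are not reported here. The members and lists were chosen with earlier results of these data known. Alternatives were RLE and library-size scaling, TMM without the members, other filters, DESeq2 1.42.0, limma-voom 3.58.1 with quality weights, a replicate block, a covariate for Xist, only the compared groups, each library left out, and WT 4 and Srsf2P95H 2 left out together. The exon-length alternative and the limit of 100 CPM were added after the data were seen. The p-values measure the spread between individual mice.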

Additional observations from a re-analysis of the deposited data

Results flagged for a closer look

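Of 116 groups of 4 libraries examined, over 27 members chosen by role, level or call, the share of counts and the subunit ratio, 4 held a library whose gap to the nearest of the others passed Dixon's critical value, as a share of the range, where chance gives about 1 in 20 and hence 5.8. Rpl15 stood at 405 CPM in WT 4 and at 504 CPM in the nearest WT mouse. Rpl11 stood at 517 CPM in WT 4 and at 644 CPM in the nearest. Rpl24 stood at 2.59 CPM in WT 4 and at 4.05 CPM in the nearest. Rpl39l stood at 0.952 CPM in Asxl1Tg 3 and at 0.00973 CPM in the next highest Asxl1Tg mouse. In 3 of these groups the library was WT 4, which also had the lowest share of counts in ribosomal protein genes.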

How the results depend on the processing

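None of the named members called turned its direction in the alternatives run, while calls of other genes were not followed. The count of members called moved most. The share of all genes called under each alternative is not given here, so shifts in these counts cannot be read as particular to the members. In DM versus Asxl1Tg it was 1, and became 0 with RLE scaling, with library size as the only scaling and with only the compared groups, 2 with the replicate block, 5 with DESeq2, 11 without WT 4 and Srsf2P95H 2 and 20 with limma-voom. In DM versus WT it was 8, and became 5 with library size only, 3 with only the compared groups, 3 without WT 4 and Srsf2P95H 2, 20 with DESeq2 and 26 with limma-voom. In Srsf2P95H versus WT it was 2, and became 1 with library size only, 1 without both libraries, 0 with the Xist covariate, 0 with only the compared groups and 9 with DESeq2. In DM versus Srsf2P95H it was 0 and became 1 with no filter, the stricter filter, DESeq2, limma-voom or only the compared groups. For the averaged Srsf2 mutation it was 25, and became 8 with library size only. Leaving out each library in turn gave 0 to 1 in Asxl1Tg versus WT, 0 to 4 in Srsf2P95H versus WT, 3 to 11 in DM versus WT, 0 to 4 in DM versus Asxl1Tg, 0 to 1 in DM versus Srsf2P95H and 5 to 26 for the averaged mutation. With library size only, the median log2 fold change of members in Srsf2P95H versus WT was 0.08 beside -0.16 over all genes. Without both libraries that median went from 0.19 to 0.046. The median interaction was 0.13 with limma-voom and 0.14 without both libraries. With the length of all exons, Rps29 stood at 3093 TPM, Rps12 at 1463, Rplp1 at 4921 and Rpl6l at 10.01. The replicate block was fitted though the labels do not state that the numbers pair the mice. The best correlation of a library was with its own number in 3 of 16. With this block 33 members were called for the averaged Srsf2 mutation and 12 in DM versus WT. The cause of these shifts was not tested. Depth did not limit the abundant members, while Rpl39l and Rpl3l rest on few counts.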
